A study of Rattus norvegicus with 24 samples.

Results

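Gene expression in rat skin that had received saline into the dermis (intradermal, ID) was compared with that in skin that had received saline beneath the skin (subcutaneous, SC), with neither arm given gel. The libraries were taken by their titles, 6 for ID saline and 6 for SC saline, 12 of the 24 in the series, and all 23095 genes of the count table were considered. All animals were Sprague-Dawley rats, an albino outbred stock, and the tissue was dorsal skin collected 7 days after the injection. The other 12 libraries came from skin given T-gel, a biodegradable polymer gel, 6 by the ID and 6 by the SC route. The saline groups served as the vehicle controls of the gel, and this contrast asks how far the control libraries of the injection sites differed from each other. The labels give no injected volume, sex or age, name no uninjected skin, and do not state whether each replicate was a different animal. The p-values therefore measure only the spread between these samples, which may be technical. RNA from the whole piece of tissue was sequenced, so fewer cells of a type and less RNA per cell cannot be told apart.

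Rat dorsal skin is layered as epidermis with hair follicles and sebaceous glands, a collagen-rich dermis, fat, and a sheet of striated muscle, the panniculus carnosus, on its underside. Skeletal muscle fibres are slow or fast according to the isoforms of myosin, troponin and calcium pump they make, and the cutaneous muscle of rodents is known as mostly fast. Fibroblasts make the fibrillar collagens of the dermis, which are trimmed, modified and crosslinked by a set of enzymes. Newly made red cells, the reticulocytes, still carry messenger RNA for haemoglobin and membrane proteins, so whole tissue with blood in it contains red cell transcripts.

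The saline libraries held 14291387 to 18821730 counts each. Libraries of the same group correlated at 0.971 to 0.992 in ID saline and 0.965 to 0.989 in SC saline over log2 levels, and libraries of different groups at 0.9497 to 0.984. On the first principal component, with 30.9% of the variance, ID saline ran from -37.66 to 1.998 and SC saline from 1.148 to 40.79, so the groups overlapped narrowly. SC saline 1 and SC saline 3 stood apart from the other 10 libraries on the second component (23.9%), at -36.69 and -38.84. Those libraries also had the lowest summed levels of 15 fast muscle genes, 25420 and 25260 CPM (counts scaled to library size) against 40250 to 59770 elsewhere. The counts of calls over all genes and in the slow muscle, red cell, interferon response and collagen lists are also given without them. Defining markers of muscle, keratinocytes, fibroblasts, fat, endothelium and hair follicles were present in all 12 libraries, while those of mammary gland (Csn2, Wap and Lalba) were at or near 0.

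At an adjusted p under 0.05 (Benjamini-Hochberg over all genes, quasi-likelihood test of edgeR), 667 of 14220 tested genes differed (4.69%), 259 higher (1.82%) and 408 lower (2.87%) in ID saline. Of the calls, 57 were higher and 84 lower by at least 1 log2 unit, and 377 had no overlap between the groups, where 498 of all genes tested had none (3.5%). Fits that changed the scaling factors alone kept more genes lower than higher, with 284 higher and 343 lower by RLE factors and 244 and 433 by upper-quartile factors. On log2(FPKM + 1) values, where the test, the filter and the scaling all differ, the split was 301 higher and 198 lower. With all 24 libraries in the fit it was 247 higher and 228 lower, and without SC saline 6 it was 360 higher and 353 lower. The count was 263 without ID saline 2, 213 without ID saline 3, 246 without ID saline 4, 408 without ID saline 6, 284 without SC saline 1, 283 without SC saline 2, 390 without SC saline 4 and 1237 without SC saline 5. With ID saline 3 and ID saline 4 both left out it was 111 (58 higher, 53 lower), and with SC saline 1 and SC saline 3 both left out 344 (143 higher, 201 lower). A core of 203 genes, 83 higher and 120 lower, was called whichever 1 library was left out.

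**Figure D1:**
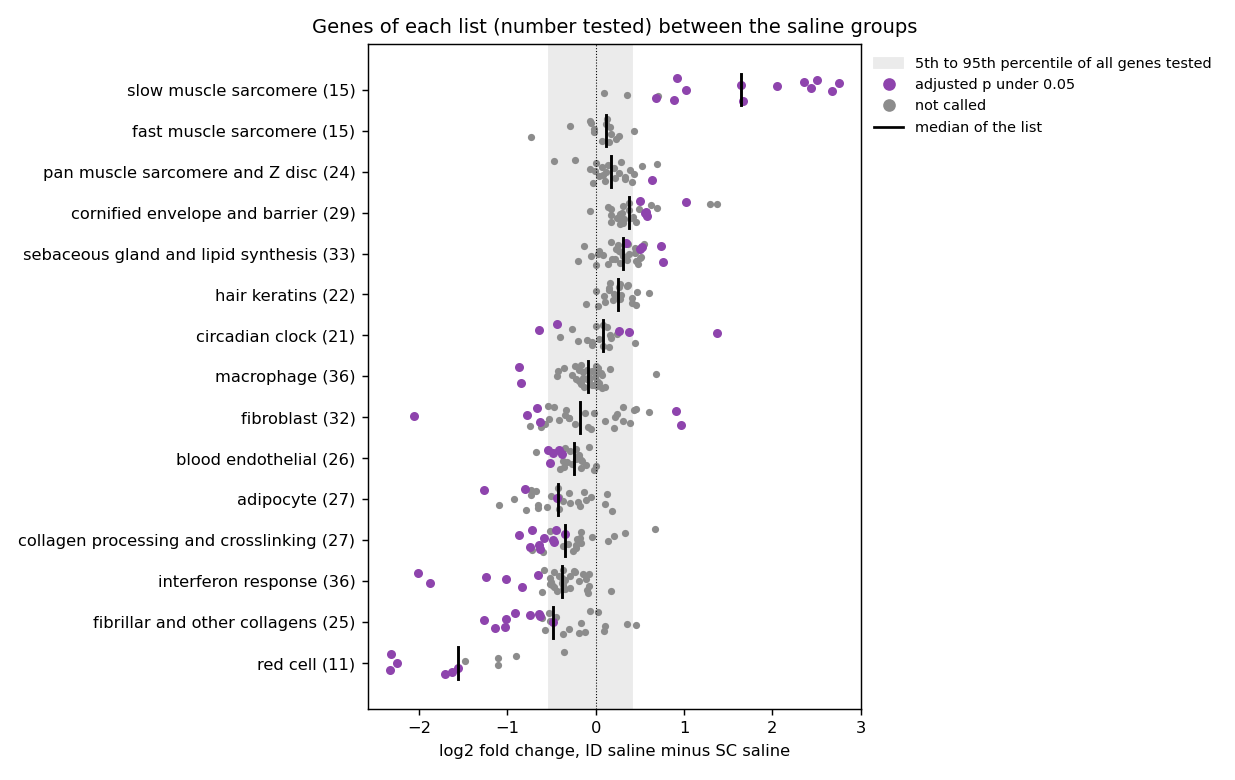
Log2 fold changes between ID saline and SC saline (horizontal axis) for the tested genes of 15 lists, with called genes in purple, the median of each list as a bar and the central range of all genes tested shaded. The slow muscle list lies to the right of 0, the red cell and collagen lists to the left, and the fast muscle list around 0.

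Genes of slow muscle fibres were higher in ID saline. Of 15 tested genes of the slow sarcomere, 12 were higher in ID saline and none lower, with a median log2 fold change of 1.64 against -0.01 over all genes tested. All 12 stayed called when any 1 library was left out. Of 15 fast-fibre genes 0 were called by edgeR's quasi-likelihood test, 1 had an unadjusted p under 0.05 and 1 was called by DESeq2, and their median was 0.12. The promoters of 3 slow-fibre genes that moved together are shown first.

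The sequences are those of RefSeq on the GRCr8 assembly, 250 bases before to 50 after the annotated start, read 5′ to 3′ on the strand of the gene, with each CANNTG word, the letters read by muscle regulatory factors, in capitals. The word is its own reverse complement, so 1 search covers both strands. Of 33469 rat promoters of this length, 72.1% hold at least 1 such word, and a match is a description only. Myh7 lies at chr15:32438145-32438444 on the minus strand, Tnni1 at chr13:49781279-49781578 on the plus strand and Tnnt1 at chr1:78348785-78349084 on the plus strand, with 4, 3 and 3 words.
Myh7: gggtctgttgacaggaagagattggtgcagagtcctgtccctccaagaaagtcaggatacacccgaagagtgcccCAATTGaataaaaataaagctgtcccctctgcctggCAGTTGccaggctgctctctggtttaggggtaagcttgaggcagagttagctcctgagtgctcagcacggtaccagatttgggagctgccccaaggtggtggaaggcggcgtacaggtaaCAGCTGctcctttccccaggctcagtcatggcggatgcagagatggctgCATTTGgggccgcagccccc
Tnni1: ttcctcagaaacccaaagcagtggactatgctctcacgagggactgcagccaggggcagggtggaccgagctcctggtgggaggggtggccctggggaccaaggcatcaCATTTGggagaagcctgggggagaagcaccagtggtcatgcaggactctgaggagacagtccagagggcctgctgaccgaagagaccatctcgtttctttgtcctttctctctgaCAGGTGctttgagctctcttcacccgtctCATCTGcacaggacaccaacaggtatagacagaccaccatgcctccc
Tnnt1: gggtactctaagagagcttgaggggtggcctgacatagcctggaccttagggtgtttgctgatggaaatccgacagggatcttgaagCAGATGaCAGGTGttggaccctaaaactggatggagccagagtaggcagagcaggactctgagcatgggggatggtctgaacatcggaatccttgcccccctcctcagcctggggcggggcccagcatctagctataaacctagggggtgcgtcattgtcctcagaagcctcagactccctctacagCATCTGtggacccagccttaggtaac

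Myh7 (chromosome 15, 28446550 to 28468217 in the deposited coordinates) encodes the slow, beta myosin heavy chain. Its level ran from 641.3 to 898.6 CPM in ID saline (median 721.0) and from 11.17 to 301.5 CPM in SC saline (median 79.34). Every ID library was above every SC library, and SC saline 1 was the lowest and SC saline 4 the highest of its group. The difference was 2.67 ± 0.51 log2 units (6.37-fold, adjusted p = 0.012), with means of 749.7 ± 108 and 117.8 ± 102 CPM (SD, n = 6 each).

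The 3 subunits of slow troponin, the calcium switch of the thin filament, moved with it. Tnnc1 (troponin C, chromosome 16) ran from 107.6 to 155.7 CPM in ID saline (median 120.8) and from 3.84 to 40.9 in SC saline (median 13.8), a difference of 2.75 ± 0.42 log2 units (adjusted p = 0.0031). Tnnt1 (troponin T, chromosome 1) ran from 209.5 to 297.9 CPM (median 245.4) against 5.28 to 112.1 (median 27.7), and differed by 2.51 ± 0.49 log2 units (adjusted p = 0.013). In both genes the groups were fully apart and SC saline 1 was lowest. Tnni1 (troponin I, chromosome 13) differed by 2.36 ± 0.39 log2 units, with 186.7 ± 23.6 CPM in ID saline and 36.4 ± 27.5 in SC saline (adjusted p = 0.0053).

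The slow myosin light chains Myl2 and Myl3 were higher by 2.44 ± 0.41 and 2.05 ± 0.42 log2 units. Myl2 ran from 204.4 to 279.5 CPM in ID saline (median 240.9) and from 8.35 to 106.5 in SC saline (median 34.6), again with no overlap. A gene that the file names AC128207.1 and describes as a myosin light chain 6B was at 42.7 ± 7.00 against 14.2 ± 4.54 CPM (1.59 ± 0.18 log2 units, adjusted p = 0.00034). Of the other slow-fibre parts, Myoz2, a Z-disc protein, rose by 1.64 ± 0.25, Ankrd2, a stretch-responsive protein, by 1.66 ± 0.26, and Mettl21c, a lysine methyltransferase of muscle, by 2.06 ± 0.40 log2 units.

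Other slow-fibre genes differed by about 1 log2 unit or less. Atp2a2, the calcium pump SERCA2, ran from 615.0 to 721.3 CPM in ID saline (median 651.9) and from 313.8 to 471.2 in SC saline (median 341.8), a difference of 0.89 ± 0.10 log2 units (adjusted p = 0.00034). The slow tropomyosin Tpm3 differed by 0.92 ± 0.11, the myosin Myh7b by 1.02 ± 0.15 and the calcium-binding protein Casq2 by 0.68 log2 units. In Atp2a2 and Tpm3 the groups did not overlap, and SC saline 4 was the highest of its group.

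Fast-fibre and general muscle genes gave no such difference. Myh4, the fastest myosin heavy chain, ran from 17300 to 21910 CPM in ID saline (median 20290) and from 9886 to 24360 in SC saline (median 19480), a difference of 0.17 ± 0.23 log2 units (adjusted p = 0.68). Myh2, the myosin of the fast oxidative fibre, stood at 1556 ± 320 against 1291 ± 546 CPM (0.27 ± 0.26, adjusted p = 0.54), and the embryonic myosin Myh3 at 11.4 ± 6.70 against 8.36 ± 6.43 CPM (0.44 ± 0.44, adjusted p = 0.56). Ckm, muscle creatine kinase, stood at 4829 ± 781 against 5596 ± 2554 CPM (-0.21 ± 0.28, adjusted p = 0.67). In each of these genes the groups overlapped, and SC saline 1 and SC saline 3 were the lowest libraries for Myh4. Of 24 general sarcomere and Z-disc genes 1 was higher, the ubiquitin ligase Fbxo32 (0.64 ± 0.12 log2 units), and of 27 excitation and energy genes 2 were higher, the fatty acid binding protein Fabp3 (1.06 ± 0.22) and the cardiac actin Actc1. Actc1 (1.29 ± 0.27) lost its call without ID saline 4 (1.14, adjusted p = 0.051). Asb18, at 2.61 ± 0.779 against 0.967 ± 0.486 CPM (1.44 ± 0.32, adjusted p = 0.027), lost its call without ID saline 2, 3 or 4 or SC saline 1 or 4 (adjusted p = 0.053 to 0.063).

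**Figure D2:**
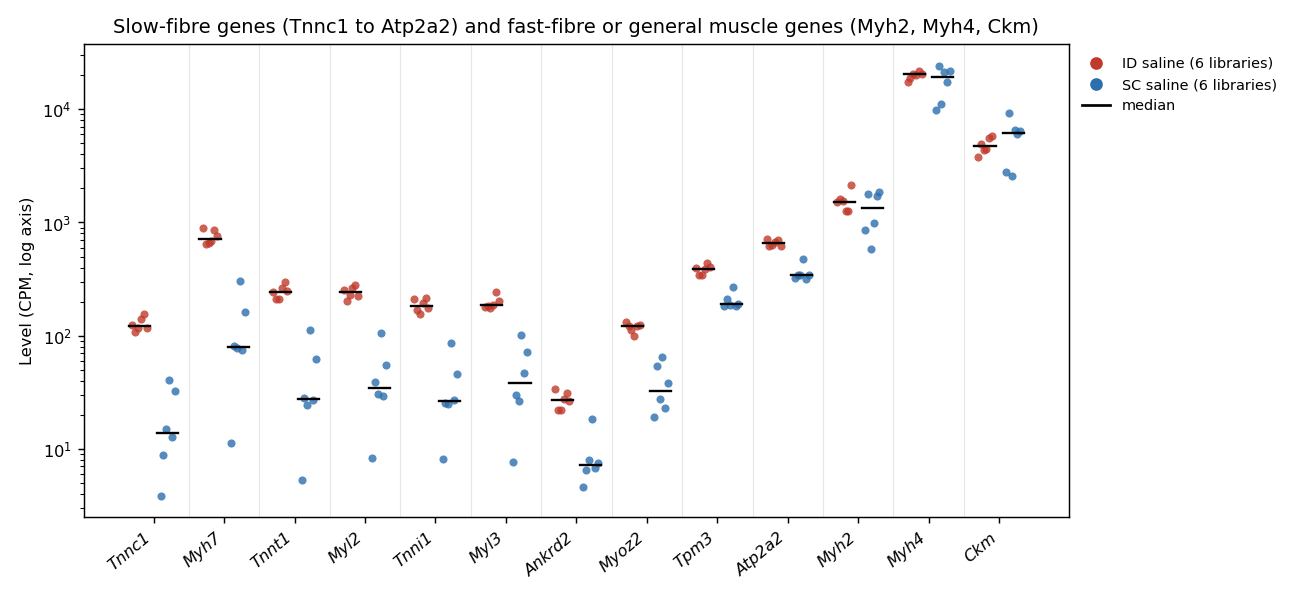
Levels in CPM (vertical log axis) of 10 slow-fibre genes and of the general or fast-fibre genes Myh2, Myh4 and Ckm in each saline library, with medians as bars. For the slow-fibre genes all 6 ID libraries lie above all 6 SC libraries, while for Myh2, Myh4 and Ckm the groups overlap.

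On the FPKM scale, which corrects for gene length and so allows levels of different genes to be set side by side, Myh7 stood at 128.8 ± 14.3 in ID saline and 19.6 ± 17.7 in SC saline. Myh2 stood at 262.7 ± 51.2 and 203.7 ± 73.5, and Myh4 at 1681 ± 152 and 1407 ± 410. Fast myosin was thus the most abundant of the 3 in both groups. Myh7 made up 6.27% ± 1.07 (5.42 to 8.27) of the sum of the 3 in ID saline and 1.10% ± 0.824 (0.196 to 2.55) in SC saline, with no overlap between the groups. Myh1, another skeletal muscle myosin, was not matched in the data and is missing from this sum, so these are not shares of all myosin. In gel-injected skin muscle transcripts were scarce, with Myh7 at 2.75 ± 5.13 CPM in ID gel and 0.0803 ± 0.132 in SC gel, and 8 of the 15 slow-fibre genes passed the filter there. Among those, Tnnt1, Tpm3 and Atp2a2 were higher in ID gel by 2.21 ± 0.53, 1.06 ± 0.14 and 0.60 ± 0.09 log2 units (adjusted p = 0.0027, 2.54e-05 and 7.52e-05), and Myh7b was lower by 1.31 ± 0.28. Of all genes tested in gel 32.8% were higher in ID gel, and which cells made these transcripts there was not tested. The count of 12 slow-fibre genes in saline was 12 with SC saline 1 and SC saline 3 both left out and 8 with ID saline 3 and ID saline 4 both left out.

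Part of the red cell genes were lower in ID saline. Of 11 tested 6 were lower, where 2.87% of all genes tested were, and none were higher, and the median was -1.56 log2 units against -0.01 over all genes tested. Slc4a1 (chromosome 10, 87306872 to 87323117), the anion exchanger band 3 of the red cell membrane, ran from 3.02 to 22.0 CPM in ID saline (median 8.95) and from 28.6 to 80.2 in SC saline (median 42.9). All ID libraries were below all SC libraries, ID saline 1 being the lowest and ID saline 5 the highest of its group. The difference was -2.31 ± 0.37 log2 units (adjusted p = 0.0046).

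Alox15, the 15-lipoxygenase of maturing reticulocytes, ran from 1.09 to 13.3 CPM (median 4.17) in ID saline and from 15.9 to 43.0 (median 22.0) in SC saline, a difference of -2.32 ± 0.45 log2 units (adjusted p = 0.012). ID saline 5 was again the highest of its group and the groups did not overlap. Rhd, which encodes a Rh blood group protein, differed by -2.61 ± 0.41 log2 units (1.58 ± 1.02 against 9.66 ± 4.59 CPM, adjusted p = 0.0040). Rhd and Hemgn, a nuclear protein of blood cell precursors, are outside the list of 11 and are named by the size of their change. Hemgn differed by -2.25 ± 0.47 log2 units (adjusted p = 0.019), a call lost without ID saline 2 (adjusted p = 0.050) or 3 (0.055).

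Other calls of the list depended on single libraries. The membrane protein gene Epb42, at -1.56 ± 0.36 log2 units, lost its call without ID saline 2, 3, 4 or 6 or SC saline 2 (adjusted p = 0.062 to 0.075). Alas2, the first enzyme of haem synthesis in red cells (55.3 ± 42.5 against 170.7 ± 72.8 CPM, -1.63 ± 0.43, adjusted p = 0.049), and Ahsp, a chaperone of alpha globin (2.38 ± 2.04 against 7.66 ± 4.62 CPM, -1.70 ± 0.46, adjusted p = 0.0497), lost their calls without any 1 library other than ID saline 5 (0.054 to 0.117). The count of 6 fell to 2 without ID saline 2, 3 or 6 or SC saline 2 and to 3 without ID saline 4. It was 4 with SC saline 1 and SC saline 3 both left out. With ID saline 3 and ID saline 4 both left out it was 1, and with all 24 libraries in the fit 0. The alpha globin gene Hba-a2, at 4248 ± 3108 against 11840 ± 5154 CPM, was not called (-1.48 ± 0.44, adjusted p = 0.067).

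**Figure D3:**
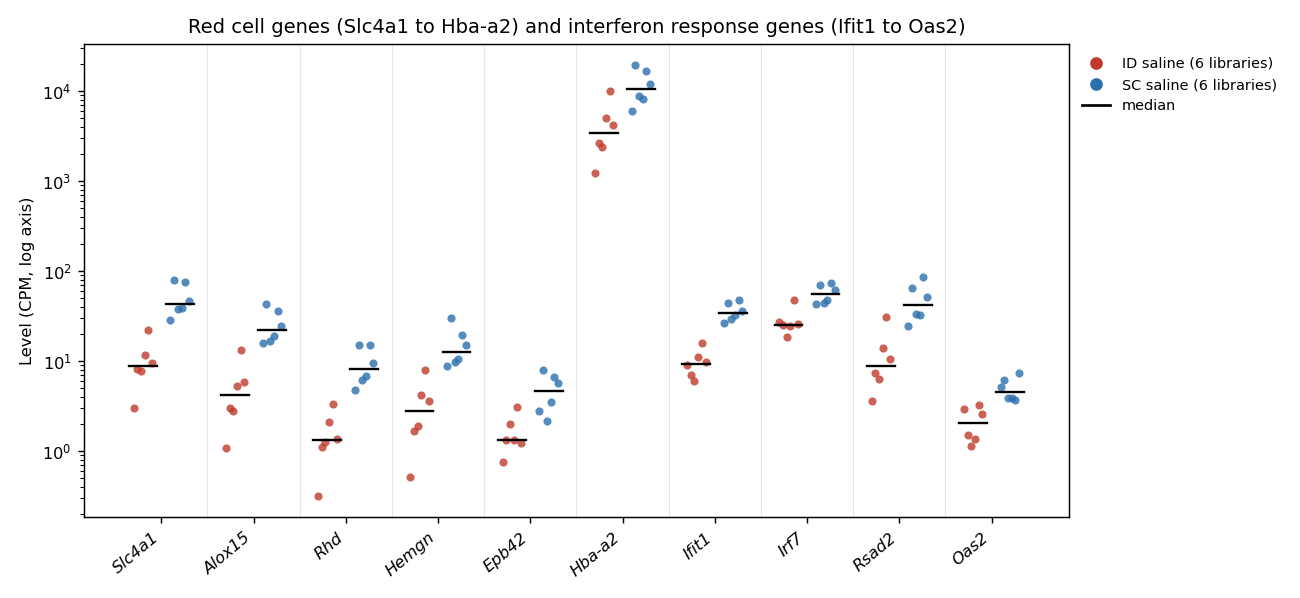
Levels in CPM (vertical log axis) of 6 red cell genes and 4 interferon response genes in each saline library, with medians as bars. The red cell genes other than Epb42 and Hba-a2 do not overlap between the groups, and among the interferon response genes Ifit1 and Oas2 do not.

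Interferon response genes, which cells switch on against viruses and through interferon receptors, were partly lower in ID saline. Of 36 tested genes 6 were lower, against 2.87% of all genes tested, and none were higher, and the median was -0.37 log2 units. Irf7, a transcription factor that amplifies the type I interferon response, and Rsad2, the antiviral enzyme viperin, are shown by their RefSeq promoters on GRCr8 (chr1:205799974-205800273 and chr6:48788071-48788370, both on the minus strand). Capitals mark TTTC followed by any 2 bases and TTTC again, a core of the interferon-stimulated response element, searched on both strands. It occurs in 3.92% of the 33469 promoters. Of the 4 called interferon genes with a promoter in the table, Irf7, Rsad2 and Oasl2 hold it once each and Herc6 does not hold it.
Irf7: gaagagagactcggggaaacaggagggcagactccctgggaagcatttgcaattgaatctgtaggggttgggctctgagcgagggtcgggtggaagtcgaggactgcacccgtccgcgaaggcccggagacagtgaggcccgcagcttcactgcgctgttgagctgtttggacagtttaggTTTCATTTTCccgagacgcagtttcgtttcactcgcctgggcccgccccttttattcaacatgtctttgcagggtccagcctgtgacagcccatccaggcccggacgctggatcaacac
Rsad2: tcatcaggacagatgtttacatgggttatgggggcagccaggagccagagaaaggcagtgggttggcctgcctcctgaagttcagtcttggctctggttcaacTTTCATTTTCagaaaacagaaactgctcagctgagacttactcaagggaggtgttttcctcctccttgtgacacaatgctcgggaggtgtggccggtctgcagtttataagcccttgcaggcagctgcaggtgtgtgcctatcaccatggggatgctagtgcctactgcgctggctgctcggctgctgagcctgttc

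Ifit1, an antiviral RNA-binding protein, ran from 6.07 to 16.1 CPM in ID saline (median 9.43) and from 26.7 to 47.8 in SC saline (median 34.2). The groups did not overlap, ID saline 5 was the highest ID library, and the difference was -1.88 ± 0.22 log2 units (adjusted p = 0.00034). Irf7 ran from 18.8 to 48.4 CPM (median 25.5) against 42.9 to 73.5 (median 55.3). ID saline 5 reached into the range of SC saline, and the difference was -1.01 ± 0.21 log2 units (adjusted p = 0.018).

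Rsad2 ran from 3.66 to 31.1 CPM (median 8.95) against 24.9 to 85.5 (median 42.5), with ID saline 5 again inside the SC range. Its call (-2.01 ± 0.44, adjusted p = 0.025) ended without ID saline 2, 3 or 4 or SC saline 2 (0.052 to 0.063). Oas2, which makes the signal for RNA decay, at -1.24 ± 0.27 (adjusted p = 0.025), lost its call without ID saline 2, 3 or 4 or SC saline 1 or 2 (0.051 to 0.063). Herc6 (-0.83 log2 units) and Oasl2 (-0.65) were the remaining calls, with adjusted p = 0.033 and 0.034. Herc6 lost its call without ID saline 2, 3, 4 or 6 or SC saline 1, 2, 3 or 6 (0.050 to 0.078), and Oasl2 without ID saline 3 or 4 or SC saline 1, 2 or 4 (0.050 to 0.087). The count of 6 became 3 without ID saline 2 or SC saline 1 and 2 without ID saline 3, ID saline 4 or SC saline 2. It was 4 with SC saline 1 and SC saline 3 both left out, 1 with ID saline 3 and ID saline 4 both left out and 1 with all 24 libraries. The red cell list, with sums of 1367 to 11050 CPM in ID saline and 6551 to 20480 in SC saline, moved with this list, and its part in the result was not tested.

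Several collagen messenger RNAs were lower in ID saline. Of 25 tested collagens 9 were lower, against 2.87% of all genes tested, and none were higher, with a median of -0.48 log2 units, and their summed level ran from 26470 to 55790 CPM in ID saline and from 67070 to 115900 in SC saline. Col3a1 (chromosome 9, 47374593 to 47410547), which encodes type III collagen of pliable dermis, ran from 6384 to 13380 CPM in ID saline (median 9910) and from 19220 to 30140 in SC saline (median 22780). The groups were well apart, with ID saline 4 lowest and SC saline 1 highest, and the difference was -1.26 ± 0.23 log2 units (adjusted p = 0.0086).

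Type I collagen, the main fibre of skin, is made from Col1a1 and Col1a2. Col1a1 ran from 10460 to 22960 CPM in ID saline (median 16230) and from 27350 to 49030 in SC saline (median 34440), a difference of -1.14 ± 0.24 log2 units (adjusted p = 0.019). Col1a2 stood at 9842 ± 2696 against 20080 ± 4799 CPM (-1.03 ± 0.22, adjusted p = 0.024). Neither overlapped between groups, but the call of Col1a1 was lost without ID saline 3 (adjusted p = 0.055), and that of Col1a2 without ID saline 2, 3 or 4 (0.053 to 0.063). Col5a1, a collagen that sets fibril width, differed by -1.01 ± 0.19 log2 units and the microfibril collagens Col6a6 and Col6a2 by -0.91 ± 0.19 and -0.74 ± 0.15. Col6a2 lost its call without ID saline 3 (-0.68, adjusted p = 0.051). The count of 9 became 5 without ID saline 2, 3 without ID saline 3 and 5 without ID saline 4. It was 2 without both ID saline 3 and ID saline 4, and 6 without both SC saline 1 and SC saline 3.

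Of 27 genes that process collagen 10 were lower and none higher, with 2.87% of all genes tested lower, and a median of -0.35 log2 units. Pcolce, which speeds the removal of the carboxyl propeptide, ran from 149.6 to 243.2 CPM in ID saline (median 201.4) and from 286.2 to 465.2 in SC saline (median 350.2), without overlap, a difference of -0.87 ± 0.14 log2 units (adjusted p = 0.0049). Bmp1, the protease that removes the propeptide, differed by -0.63 ± 0.13, Fkbp10, a chaperone of procollagen, by -0.74 ± 0.12, and P3h4, a partner of the prolyl and lysyl hydroxylases, by -0.49 ± 0.10. Lox, the crosslinking lysyl oxidase, stood at 108.7 ± 22.0 against 139.7 ± 19.6 CPM and was not called (-0.36 ± 0.13, adjusted p = 0.12). The count of 10 became 4 without ID saline 2, ID saline 3, ID saline 4, SC saline 1 or SC saline 2, and 6 without ID saline 6 or SC saline 4. It was 2 with SC saline 1 and SC saline 3 both left out, and 2 with ID saline 3 and ID saline 4 both left out.

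**Figure D4:**
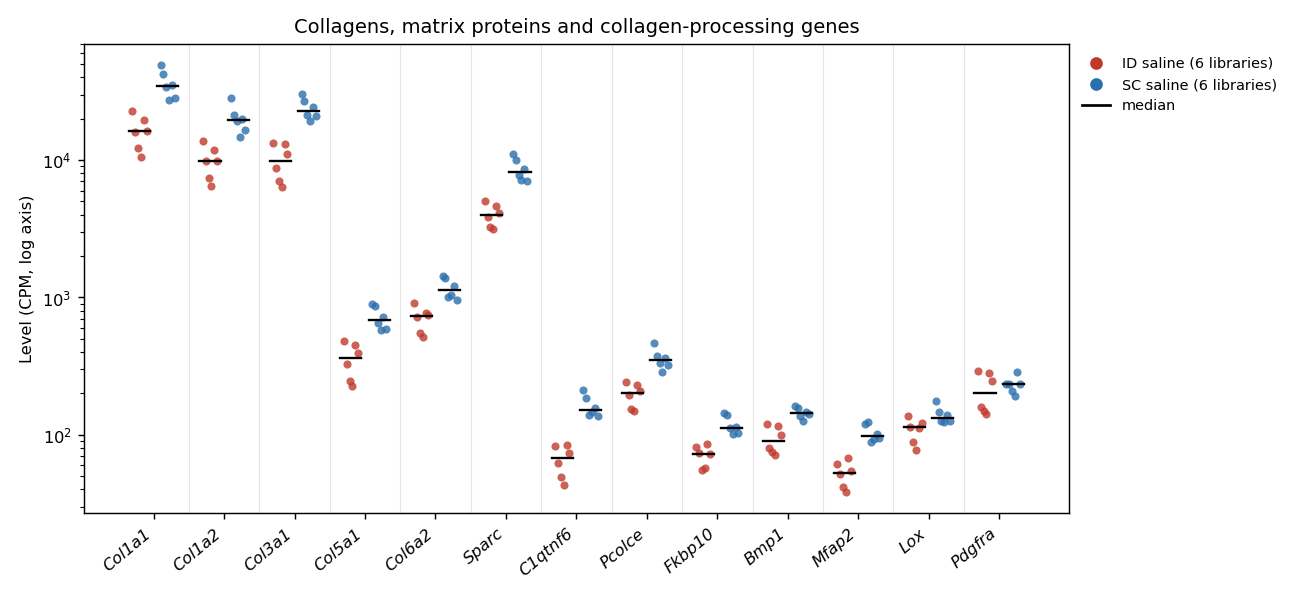
Levels in CPM (vertical log axis) of collagens, matrix proteins, collagen-processing genes and the fibroblast receptor Pdgfra in each saline library, with medians as bars. The ID libraries lie below the SC libraries for each gene except Lox and Pdgfra, whose groups overlap.

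Some other matrix genes of fibroblasts were lower as well. Of 18 elastic fibre genes 2 were lower, of 24 basement membrane genes 1 and of 17 proteoglycan and hyaluronan genes 3. None of these lists held a higher call. Of 31 activated fibroblast and TGF-beta genes 4 were lower and 1 higher. Over all genes tested 2.87% were lower and 1.82% higher. Fold changes above 0 numbered 5, 5, 5 and 10 in these lists. Sparc, a collagen-binding matricellular protein, ran from 3134 to 5046 CPM in ID saline (median 3971) and from 7008 to 11000 in SC saline (median 8214), a difference of -1.11 ± 0.17 log2 units (adjusted p = 0.0034). C1qtnf6, a secreted protein of the C1q and TNF-related family, differed by -1.31 ± 0.17 log2 units (65.7 ± 17.2 against 162.6 ± 30.2 CPM, adjusted p = 0.00096). The elastic microfibril genes Mfap2 and Mfap4 differed by -0.98 ± 0.14 and -0.72 ± 0.12, the basement membrane gene Nid2 by -0.63 ± 0.12, the collagen-associated proteoglycan Lum by -0.78 ± 0.16, and Ccn4 and Cthrc1, secreted by activated fibroblasts, by -0.69 ± 0.12 and -0.80 ± 0.15.

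Genes that mark the fibroblast rather than its matrix did not all follow. Pdgfra, the receptor that marks dermal fibroblasts, ran from 142.3 to 291.7 CPM in ID saline (median 203.0) and from 191.4 to 286.3 in SC saline (median 232.9), overlapped between groups and was not called (-0.12 ± 0.18, adjusted p = 0.72). The surface protein Thy1 was lower by 0.67 ± 0.13 log2 units (67.6 ± 5.10 against 107.3 ± 23.7 CPM, adjusted p = 0.011). Tgfb1, a driver of collagen synthesis, stood at 28.5 ± 6.41 against 32.7 ± 4.53 CPM (-0.20 ± 0.14, adjusted p = 0.37), and Acta2, the actin of smooth muscle and myofibroblasts, at 219.3 ± 23.2 against 239.4 ± 59.9 CPM (-0.13 ± 0.14, adjusted p = 0.60). In the general fibroblast list of 32 genes, 2 were higher and 4 lower (median -0.18), where 1.82% and 2.87% of all genes tested were. The 6 calls became 3 without ID saline 2, 3, 4 or 6 or SC saline 3 or 4. The protease gene Adamts15 was lower by 0.52 ± 0.11 log2 units.

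Of 128 genes in 7 immune cell and cytokine lists, 2 were higher and 7 lower (7.03%, against 4.69% of all genes tested). Of 36 macrophage genes 2 were lower, against 2.87% of all genes, with a median of -0.09 log2 units. None of these 36 were called without ID saline 2, 3 or 4 or SC saline 1, 2, 3 or 6, and 1 was without ID saline 6 or SC saline 4. Among them was the sialic acid receptor Siglec1 (-0.86 ± 0.22, adjusted p = 0.040), which lost its call without ID saline 2, 3, 4 or 6 or SC saline 1, 2, 3, 4 or 6 (0.052 to 0.092). Cd68 stood at 36.7 ± 13.5 CPM in ID saline and 41.9 ± 9.28 in SC saline (-0.19 ± 0.21, adjusted p = 0.60), and Mrc1 at 271.1 ± 108 against 290.6 ± 31.6 (-0.10 ± 0.21, adjusted p = 0.80). The enzymes Arg1 (7.00 ± 0.975 against 6.92 ± 2.14 CPM) and Nos2 (1.16 ± 0.531 against 1.122 ± 0.522 CPM) and the cytokine Il1b (6.38 ± 1.28 against 5.84 ± 1.21 CPM) had adjusted p = 0.67 to 0.98. Of 9 neutrophil genes 1 was lower, against 2.87% of all genes, and none higher, with 4 positive and 5 negative fold changes (median -0.16). The summed level of that list had medians of 230.3 CPM in ID saline and 229.7 in SC saline. Its 1 call was Mpo, the neutrophil granule peroxidase that is also made by marrow precursors. Mpo ran from 1.64 to 3.59 CPM in ID saline (median 2.65) and from 3.84 to 12.4 in SC saline (median 6.50). The groups did not overlap and the difference was -1.46 ± 0.26 log2 units (adjusted p = 0.0077). The immunoglobulin heavy chain gene Ighm stood at 14.7 ± 4.78 against 35.1 ± 14.8 CPM (-1.26 ± 0.28, adjusted p = 0.024), a call lost without ID saline 2, 3 or 4 or SC saline 2 (0.055 to 0.061). It was the 1 call among 6 tested B and plasma cell genes, of which 5 had a negative fold change. The summed level of that list went the other way, with medians of 570.7 CPM in ID saline and 495.8 in SC saline. Ciita, which switches on MHC class II genes, was lower by 0.52 ± 0.11 and the MHC class I gene RT1-T24-4 by 0.76 ± 0.14 log2 units, although class I genes are close copies and the sources used here do not give the handling of shared reads.

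Some genes of the skin barrier and sebaceous gland were higher in ID saline, while no gene of the keratin lists was called. Of 29 cornified envelope genes 5 were higher and none lower (median 0.37), and of 33 sebaceous and lipid synthesis genes 5 were higher and none lower (median 0.31), against 1.82% of all genes tested. Each count fell to 1 without ID saline 2, 3 or 4 or SC saline 1 or 2. The first was 3 without ID saline 1 or SC saline 3, 4 or 6 and 9 without ID saline 5, and the second 3 without ID saline 6 or SC saline 3. Tgm3, a transglutaminase of the cell envelope and hair, ran from 69.4 to 139.7 CPM in ID saline (median 123.9) and from 47.5 to 69.9 in SC saline (median 56.8). ID saline 5 lay just inside the SC range and the difference was 1.02 ± 0.15 log2 units (adjusted p = 0.0031). Cidea, a lipid droplet protein of sebaceous glands, was higher by 0.76 ± 0.14 log2 units (72.5 ± 15.8 against 42.9 ± 7.43 CPM, adjusted p = 0.011), and Elovl4, which makes very long fatty acids of the barrier, by 0.58 ± 0.14 (adjusted p = 0.036). The Elovl4 call was lost without ID saline 2, 3 or 4 or SC saline 1, 2 or 3 (0.058 to 0.089). Of 22 hair keratins 0 were called by edgeR's quasi-likelihood test, with 0 at an unadjusted p under 0.05 and 0 by DESeq2, and of 19 epidermal keratins and basal genes 0 were called, with 6 at an unadjusted p under 0.05 and 5 by DESeq2. Krt10 of the upper epidermis stood at 2928 ± 643 against 2077 ± 335 CPM (0.50 ± 0.17, adjusted p = 0.096) and Krt71 of the hair sheath at 756.7 ± 313 against 548.6 ± 296 CPM (0.46 ± 0.35, adjusted p = 0.43).

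Some fat and vessel genes were lower in ID saline. Of 27 adipocyte genes 3 were lower (median -0.42), against 2.87% of all genes tested, led by the amino acid transporter Slc7a10 (4.95 ± 0.823 against 11.8 ± 5.94 CPM, -1.26 ± 0.26, adjusted p = 0.018), while the adipocyte hormone Adipoq was not called (193.8 ± 44.2 against 257.9 ± 112 CPM, -0.41 ± 0.23, adjusted p = 0.29). The adipocyte count was 1 without ID saline 1, 2, 3, 4 or 5 or SC saline 1 or 4, and 5 without SC saline 5 or 6. Of 26 blood endothelial genes 5 were lower, against 2.87% of all genes, 25 had a negative fold change (median -0.24), and none were called in each fit with 1 library left out. The endothelial count was 0 without ID saline 2, ID saline 3 or SC saline 2, 1 without ID saline 1, 4 or 6 or SC saline 1 or 4, and 2 without ID saline 5 or SC saline 5. Pecam1 was not called (-0.19 ± 0.13, adjusted p = 0.38). The vessel gene Eng, a co-receptor of TGF-beta, was lower by 0.52 ± 0.14 (adjusted p = 0.049), a call lost without any 1 library other than SC saline 3 or 6 (0.052 to 0.115). The shear-stress factor Klf2 was lower by 0.56 ± 0.11, and Bmp4, a signal of the hair follicle and its papilla, by 0.50 ± 0.08 log2 units. Masp1, a protease that starts the lectin pathway of complement, was higher at 90.5 ± 7.57 against 44.7 ± 11.1 CPM (1.02 ± 0.14, adjusted p = 0.0017). The protease Ctsc (0.58 ± 0.08), the lactate dehydrogenase Ldhb (0.62 ± 0.08) and the fatty acid oxidation enzyme Ech1 (0.51 ± 0.10) were higher too. Of 25 complement and coagulation genes 2 were higher, against 1.82% of all genes tested, while 18 had a negative fold change (median -0.07). Of 26 hypoxia and glycolysis genes 2 were higher, and of 28 fatty acid oxidation and mitochondrial biogenesis genes 5. None of these lists held a lower call.

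Hoxc10, a homeobox gene of the lumbar region, ran from 4.26 to 6.42 CPM in ID saline (median 5.02) and from 7.10 to 12.3 in SC saline (median 8.45), without overlap, a difference of -0.81 ± 0.15 log2 units (adjusted p = 0.0088). Of 27 tested Hox genes it and Hoxc5 were lower, against 2.87% of all genes, and none higher (median -0.07). Hoxc5 (-0.74 ± 0.19, adjusted p = 0.041) lost its call without any 1 library other than ID saline 6 or SC saline 5 (0.053 to 0.102). Tbx18, a transcription factor of embryonic mesenchyme and the dermal papilla, was lower by 0.90 ± 0.14 log2 units (5.56 ± 0.796 against 10.4 ± 1.84 CPM, adjusted p = 0.0031).

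Of 12 melanocyte genes 2 were higher and 1 lower in these albino rats, where 1.82% and 2.87% of all genes tested were. Pmel, the fibre protein of the melanosome, ran from 5.94 to 8.31 CPM in ID saline (median 7.47) and from 2.40 to 4.15 in SC saline (median 3.06), a difference of 1.20 ± 0.15 log2 units (adjusted p = 0.00048). Dct, a melanin synthesis enzyme, ran from 0.898 to 11.5 CPM in ID saline (median 6.63) and from 1.03 to 2.64 in SC saline (median 1.58). ID saline 1 lay below the whole of SC saline, and the call (1.98 ± 0.49, adjusted p = 0.037) was lost without ID saline 3, 4 or 5 or SC saline 1, 2, 4 or 6 (0.054 to 0.090). Tyrp1, another enzyme of the melanosome, was below the filter, at 0 to 7.18 CPM in ID saline (median 1.84) and 0 to 0.0512 in SC saline, with ID saline 2 at 0. Kitlg, the growth factor of melanocytes and mast cells, was lower by 0.46 ± 0.09 log2 units (adjusted p = 0.017).

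Genes of the circadian clock, a feedback loop in which Nr1d1 represses activators and the Per proteins repress them later in the cycle, were called in both directions, 3 higher and 2 lower of 21 tested (median 0.08), where 1.82% and 2.87% of all genes tested were. Nr1d1 encodes the repressor REV-ERB alpha, and one of its RefSeq starts (GRCr8, chr10:84229405-84229704, minus strand) holds the E-box CACGTG, the word read by the CLOCK and BMAL1 pair, shown in capitals. The word is its own reverse complement, and 6.42% of the 33469 promoters hold it. Another annotated start of the gene holds none.
Nr1d1: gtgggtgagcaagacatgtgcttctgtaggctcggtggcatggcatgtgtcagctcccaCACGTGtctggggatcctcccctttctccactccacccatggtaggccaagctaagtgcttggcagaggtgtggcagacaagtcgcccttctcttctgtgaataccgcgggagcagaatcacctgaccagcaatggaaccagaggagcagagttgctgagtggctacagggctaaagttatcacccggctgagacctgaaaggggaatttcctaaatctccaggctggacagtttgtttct

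Nr1d1 ran from 49.8 to 76.2 CPM in ID saline (median 57.4) and from 16.1 to 32.5 in SC saline (median 21.4). The groups were far apart, and the difference was 1.38 ± 0.16 log2 units (adjusted p = 0.00036). Its relative Nr1d2 was higher by 0.38 ± 0.08 (107.9 ± 11.2 against 82.8 ± 7.71 CPM, adjusted p = 0.024) without overlap. Per2 ran from 14.8 to 23.8 CPM (median 19.0) against 27.8 to 35.7 (median 28.7), a difference of -0.64 ± 0.11 log2 units (adjusted p = 0.0050), and Wee1, a cell cycle kinase under clock control, was lower by 0.44 ± 0.08. Per1 was called higher by 0.26 ± 0.07 (adjusted p = 0.042), and lost this call without ID saline 2, 3, 4, 5 or 6 or SC saline 1, 2, 3 or 4 (0.053 to 0.084). The labels give the day of sampling and no hour, and whether the hour differed between the groups was not tested.

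A few genes stood far from the rest of any list. The clearest was a gene with no symbol in the file, ENSRNOG00000069434 (chromosome 1, 196028296 to 196037443), at 15.8 to 20.2 CPM in ID saline (median 17.3) and 0 to 0.260 in SC saline (median 0.140). Every ID library expressed it and every SC library had almost none, a difference of 6.75 ± 0.25 log2 units (adjusted p = 1.49e-09). The reverse held for ENSRNOG00000069427 (chromosome 4, 99536972 to 99558699), at 0 to 0.385 CPM in ID saline (median 0.236) and 2.51 to 10.9 in SC saline (median 5.76), a difference of -4.78 ± 0.47 log2 units. The files give no name or role for either. Both were chosen after their values were seen, from genes without overlap between the groups.

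Rfk, riboflavin kinase, ran from 31.2 to 37.2 CPM in ID saline (median 34.8) and from 15.03 to 18.4 in SC saline (median 16.3), a difference of 1.06 ± 0.07 log2 units (adjusted p = 3.59e-06). Ccdc77, a coiled-coil protein gene, ran from 11.9 to 15.7 CPM (median 14.5) against 3.19 to 6.15 (median 5.19), a difference of 1.497 ± 0.15 log2 units. Shc3, an adaptor of receptor signalling, stood at 4.21 ± 0.660 against 0.497 ± 0.257 CPM (3.07 ± 0.27, adjusted p = 3.92e-05). For all 3 the groups did not overlap, which for Ccdc77 and Shc3 was a condition of being named. The call of each held without any 1 library.

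Wfdc18, a small secreted protein of the whey acidic protein family, ran from 5.77 to 37.3 CPM in ID saline (median 14.9) and from 0.129 to 5.61 in SC saline (median 0.6252). The groups came close, with ID saline 5 just above SC saline 5, and the call (3.23 ± 0.68, adjusted p = 0.020) was lost without ID saline 3 (3.09, adjusted p = 0.052). Among the falls outside the lists, Abcg2, an efflux transporter, stood at 1.88 ± 0.177 against 5.58 ± 1.04 CPM (-1.57 ± 0.15, adjusted p = 8.52e-05), and Cish, an inhibitor of cytokine signalling through STAT5, at 5.67 ± 0.840 against 14.7 ± 2.58 CPM (-1.37 ± 0.14, adjusted p = 0.00013). Inmt, a methyltransferase, differed by -2.06 ± 0.24, the cadherin Cdh7 by -1.58 ± 0.22, RGD1562029 by -1.43 ± 0.23 and Tmem215 by -1.32 ± 0.24 log2 units. Nexmif (-1.28 ± 0.32, adjusted p = 0.039) lost its call without ID saline 1, 3, 4 or 5 or SC saline 1, 2, 3 or 4 (0.053 to 0.097).

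The gel libraries allow the same site contrast to be made in skin that shares no library with the saline groups. ID gel differed from SC gel in 9155 of 14072 tested genes (65.1%), 4620 higher (32.8%) and 4535 lower (32.2%). Of the 259 genes higher in ID saline, 236 were tested in gel, where 36 were higher in ID gel (15.2%, below the background of 32.8%) and 118 were lower (50%, above the background of 32.2%). Of the 408 genes lower in ID saline, 396 were tested, where 148 were lower in ID gel (37.4%) and 100 higher (25.3%). The 36 and 148 genes made up 0.779% and 3.26% of the gel calls in their direction.

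The site contrast itself differed between saline and gel for 8234 of 14763 genes (55.8%), among them 190 of the 259 and 231 of the 408. Nr1d1 was higher in ID saline but lower in ID gel (17.4 ± 3.84 against 31.4 ± 8.48 CPM, -0.98 ± 0.18, adjusted p = 0.00041), and the contrasts differed by 2.25 ± 0.26 log2 units (adjusted p = 2.63e-07). Col3a1, lower in ID saline, stood at 14850 ± 4333 in ID gel and 11840 ± 3624 CPM in SC gel (0.20 ± 0.25, adjusted p = 0.50), and the contrasts differed by -1.57 ± 0.33. Wfdc18 reversed, with 46.8 ± 13.7 CPM in ID gel and 365.6 ± 174 in SC gel (-3.09 ± 0.34). Tbx18, Hoxc10, Per2 and Inmt kept their direction in gel, at -1.55 ± 0.16, -0.77 ± 0.19, -0.66 ± 0.17 and -1.54 ± 0.42 log2 units, each called there.

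In the gel groups some of the genes above divided by replicate number. ENSRNOG00000069434 was at 38.5 to 41.9 CPM in ID gel replicates 1 to 3 and at 27.3 to 36.8 in SC gel replicates 1 to 3, and at 0 to 0.131 and 0 to 0.580 CPM in replicates 4 to 6. Rfk was at 28.4 to 32.7 and 25.6 to 29.1 CPM in replicates 1 to 3 and at 14.6 to 17.8 and 15.5 to 18.6 in replicates 4 to 6. Ccdc77 was at 8.54 to 13.3 CPM in the 6 gel libraries numbered 1 to 3 and at 2.75 to 4.73 in those numbered 4 to 6. For these genes gel replicates 1 to 3 of either site lay on the side of ID saline, and gel replicates 4 to 6 on that of SC saline.

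The red cell genes divided in the same way. Slc4a1 was at 2.06 to 3.87 CPM in ID gel and 3.46 to 4.47 in SC gel in replicates 1 to 3, and at 17.4 to 35.7 and 108.0 to 135.4 in replicates 4 to 6. Over all genes tested, 283 of 14220 (1.99%) parted replicates 1 to 3 from 4 to 6 without overlap, and in the same direction, in both gel groups. Among the 667 genes called between the saline groups 65 did (9.75%), and in 64 of the 65 replicates 1 to 3 lay on the side of ID saline. They include all 6 called red cell genes. Of the called collagens 1 of 9 parted (Col3a1), and of the called collagen-processing genes 0 of 10. Among interferon response genes it was 1 of 6 (Oas2), and among clock genes 1 of 5 (Per2). In SC gel, Nr1d1, Per1 and Wee1 also parted, with replicates 1 to 3 on the side of ID saline. Nr1d1 was there at 33.1 to 46.6 CPM in replicates 1 to 3 and 24.5 to 25.4 in 4 to 6. Per1 was at 98.6 to 111.5 and 76.7 to 96.05, and Wee1 at 30.55 to 37.6 and 48.4 to 50.3. In ID gel these genes overlapped, and Nr1d2 overlapped in both gel groups. Of the 12 called slow-fibre genes 0 parted in this way. In gel 7 of them passed the filter, and the rest were too scarce there for this division to be read in them. The labels name no batch, cage, litter or date, and any such factor and the injection site cannot be told apart in the saline libraries. This division was noticed after the values were seen.

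**Figure D5:**
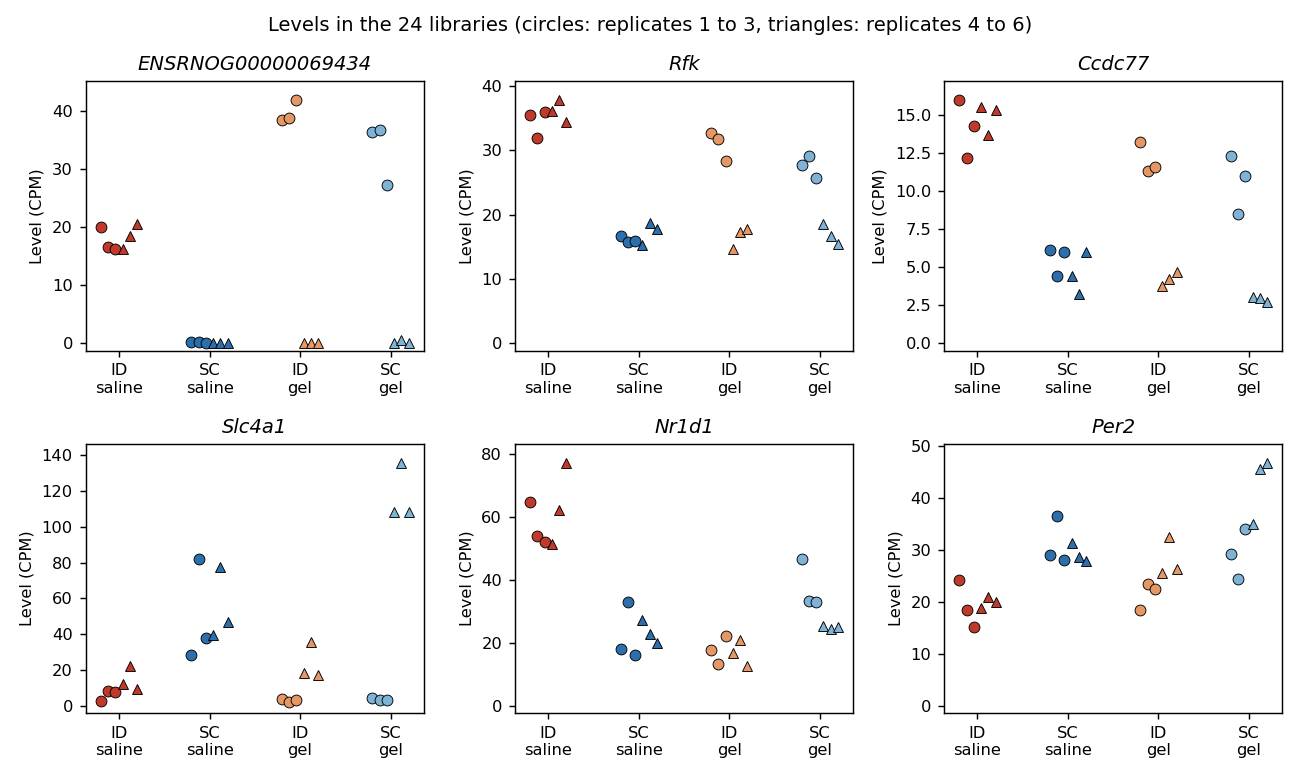
Levels in CPM (vertical axes, starting near 0) of 6 genes in all 24 libraries, with replicates 1 to 3 as circles and replicates 4 to 6 as triangles. For ENSRNOG00000069434, Rfk and Ccdc77 the gel circles sit on the side of ID saline, above it for the first, and the gel triangles near SC saline. For Slc4a1 the gel circles sit low, on the side of ID saline, and the SC gel triangles above SC saline. The ID gel triangles of Slc4a1, at 17.4 to 35.7 CPM, reach into the range of ID saline. Nr1d1 does not divide in this way in ID gel, while in SC gel its circles lie above its triangles.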

How the data were processed

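Dorsal skin RNA of 24 rat libraries (4 groups of 6, day 7) was sequenced from stranded, paired-end mRNA libraries, and the 12 saline libraries were analysed here. The deposited table holds counts per gene and FPKM values made by the authors, per the file headers. FastQC 0.11.2, Trimmomatic 0.36, StringTie 1.3.3b, DESeq2 1.12.4 and the build Rnor_6.0 are named in the submitters' processing notes, while the sources used here do not give the aligner, counter or strand setting. Of the genes, 47 lie on sequences named as in a later assembly, so the build of the deposited coordinates is uncertain, and 1 line was empty. FPKM equalled the count divided by gene length and a library total, and carries no composition scaling.

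Counts were tested with edgeR 4.0.16 (R 4.3.3): filterByExpr, TMM factors, the quasi-likelihood test over the 12 saline libraries, and Benjamini-Hochberg adjustment over all 14220 genes tested, with 10 residual degrees of freedom. Levels are CPM with TMM factors, and ± marks the SD for levels (n = 6) and the SE for log2 fold changes. In the gel groups, levels by replicate number use factors of all 24 libraries. Gel and difference fits were made in the same way. On simulated data, 47%, 90.5% and 97% of 200 genes changed 1.5-, 2- and 4-fold were found among 14220, with 5, 12 and 10 false calls. Each gene was simulated independently, without differences that libraries share over many genes, so these shares may not hold for the real data.

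Genes named are the 15 largest rises and 15 largest falls past 0.05 with a mean log2 CPM of at least 1. These 30 also had to have a symbol and no overlap between the groups, so for them that lack of overlap is no result. Up to 4 called genes of each list and direction with the smallest p are named too, as is a panel of 25, of which 23 matched. Not every gene that the rule admits is described, and some are not reported here. Rfk, Casq2, Alas2, Ahsp, Herc6, Oasl2 and the genes without a symbol fall outside it and were chosen after their values were seen. Genes whose name and number in the file disagree (372) were not named. Symbols came from the file (19061) or RefSeq (528), and 3506 genes have none. The genes and lists were chosen with earlier results of these data known. Alternatives were DESeq2 1.42.0, limma 3.58.1 (voom, and log2(FPKM + 1) or log2(FPKM + 0.1) with at least 1 FPKM in 6 libraries), other factors and filters, all 24 libraries, a replicate block and each library left out.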

Additional observations from a re-analysis of the deposited data

Results flagged for a closer look

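Of 216 groups of 6 libraries examined, 18 held a library far from the other 5, where chance gives about 1 in 20. SC saline 4 was the highest of its group for the slow-fibre genes Ankrd2 (18.3 CPM), Tpm3 (268.5 CPM) and Atp2a2 (471.2 CPM) and for Elovl4 (828.8 CPM). SC saline 2 was the highest for Myh3 (20.8 CPM), Inmt (21.2 CPM), Cd68 (59.1 CPM) and Eng (165.5 CPM). SC saline 1 was the highest for P3h4 (23.3 CPM), Nid2 (84.7 CPM), Adipoq (475.4 CPM), Slc7a10 (23.2 CPM) and Tyrp1 (0.0512 CPM). ID saline 5 was the highest of its group for Irf7 (48.4 CPM) and Ahsp (6.48 CPM). The lowest libraries that stood apart were ID saline 3 for P3h4 (10.7 CPM), ID saline 1 for Cish (3.98 CPM) and ID saline 2 for Ech1 (90.95 CPM).

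The site contrast differed between saline and gel, by edgeR's test of the difference, for 22 of 41 genes examined. The log2 contrast in saline minus that in gel was positive for Wfdc18 (6.21), Tyrp1 (7.64), Myl3 (4.07), Krt10 (2.82), Nr1d1 (2.25), Adipoq (2.14), AC128207.1 (1.59) and Ccdc77 (1.26). It was negative for the matrix genes C1qtnf6 (-2.58), Col3a1 (-1.57), Lox (-0.92) and Pdgfra (-0.60). It was negative for the immune and signalling genes Nos2 (-5.58), Cd68 (-2.66), Ifit1 (-2.08), Tgfb1 (-2.07), Mrc1 (-1.21), Cish (-1.09) and Arg1 (-0.80). The same sign held for Cdh7 (-2.71), Nexmif (-1.44) and Abcg2 (-0.83).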

How the results depend on the processing

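The count of 667 genes (259 higher, 408 lower) became 1544 (731, 813) with DESeq2, 1124 (449, 675) with voom and quality weights, 344 (143, 201) without SC saline 1 and 3, and 111 (58, 53) without ID saline 3 and 4, the last pair of choices made after seeing the data. Genes lower numbered 228 with all 24 libraries, 198 on log2(FPKM + 1) and 192 on log2(FPKM + 0.1). Slow-fibre calls numbered 6 and red cell calls 0 with all 24 libraries. Without ID saline 3 and 4, 1 red cell gene, 2 collagens, 2 collagen-processing genes and 1 interferon response gene were called. Collagen-processing calls numbered 6 on both FPKM scales and 2 without SC saline 1 and 3, and interferon response calls 10 with DESeq2, 10 with voom and 1 with all 24 libraries. The causes were not tested. With each library left out in turn, the ranges were 213 to 1237 genes called, 86 to 594 higher, 127 to 643 lower, 12 to 12 slow-fibre, 2 to 9 red cell, 3 to 9 collagen, 4 to 11 collagen-processing and 2 to 9 interferon response genes, 8700 to 9385 in gel, and 7784 to 8437 for the difference. With the replicate number as a block, 1055 genes were called (445 higher, 610 lower) and 12 interferon response genes. Same-numbered libraries correlated at -0.118 to 0.397 in their deviations. This was above the best value with another number for replicates 3 (0.397, 0.264) and 5 (0.258, 0.21), and below it for the rest. The labels give no pairing, and whether the numbers pair the samples was not tested.

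Of 107 named genes tested, 89 were called and 67 kept the call in each fit with 1 library left out. Directions reversed only among uncalled genes. Without SC saline 1 and 3 these were Myh2 (-0.018), Myh4 (-0.10) and Nos2 (-0.15), and without ID saline 3 and 4 Pdgfra (0.10), Cd68 (0.043), Mrc1 (0.16), Arg1 (-0.0082) and Nos2 (-0.10). Nos2 was at -0.044 with voom. With 1 library left out, log2 fold changes ran from -0.10 to 0.29 for Nos2, -0.072 to 0.14 for Arg1, -0.27 to 0.017 for Mrc1, -0.36 to 0.0097 for Ckm and -0.18 to 0.0013 for Acta2.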
